A study of Mus musculus with 6 samples.

Results

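The 10 genes described here encode the hypoxia-inducible factor (HIF) subunits Hif1a, Epas1, Hif3a and Arnt, the oxygen-sensing hydroxylases Egln1, Egln2, Egln3 and Hif1an, the ubiquitin ligase subunit Vhl, and adrenomedullin (Adm), a HIF target. They were taken by symbol from the 54532 genes of the deposited expression table, and all 10 had enough signal to be tested. RNA-seq was performed on the hearts of 3 WT mice and 3 mice with a knockout of Mc4r, the melanocortin-4 receptor, at 12 weeks of age, with 1 library per mouse. The mice were males on the C57B/6/N background, and the homozygous Mc4r KO mice and their WT littermates came from crosses of heterozygous parents. The knockout was of the whole animal and not of a heart cell type, and how the allele was made is not given in the sources used here. The tissue is named heart in some labels and muscle in the sample titles, and the paper speaks of left ventricle.

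HIF is a pair of an alpha subunit and the constitutive partner Arnt that binds DNA and switches on genes for glycolysis, vessel growth and oxygen supply. When oxygen is present, prolyl hydroxylases of the Egln family modify the alpha subunit, Vhl recognises the modified protein, and the proteasome destroys it, while Hif1an hydroxylates an asparagine that blocks coactivator binding. This control acts mainly on the protein, so transcript levels do not report HIF activity directly, although Egln1, Egln3 and Adm are themselves textbook HIF target genes.

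In these hearts, transcripts of the prolyl hydroxylases Egln1, Egln2 and Egln3 and of the alpha subunit Epas1 lay higher in every Mc4r KO library than in every WT library. Hif1a and Adm lay lower in every Mc4r KO library. Such separation of the groups was found in 26.4% of all genes tested. After quantile normalization, or with libraries scaled outside the mitochondrial chromosome, the Epas1 difference was near 0 and that of Egln1 was smaller. The largest difference was that of Egln3, with a mean FPKM of 16 ± 3.51 among the WT mice against 48.5 ± 18.6 among the Mc4r KO mice (SD, n = 3 each). None of the 10 differences passed the threshold of the test across all genes.

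HIF binds the core sequence ACGTG or GCGTG. Among 32851 RefSeq promoter windows on GRCm38.p6, each the 250 bases before a listed gene start, 38.6% held at least 1 of these cores on either strand, 16.6% held ACGTG and 28.2% held GCGTG. Windows were listed for 9 of the 10 genes, all but Epas1, and 7 of these genes had a core, namely Hif1a, Hif3a, Arnt, Egln1, Egln2, Egln3 and Adm. The ACGTG form occurred in 4 of them. Such a match describes letters and is no evidence of binding, and none was found in the windows of Hif1an and Vhl. A selection of the cores is given here, from genes whose groups of libraries did not overlap. The cores of Hif3a, whose groups were nearly tied, and the GCGTG cores of Egln2 are left out. Each core shown has 10 bases on each side and is read 5′ to 3′ on the strand of the gene, and the capitals mark it. Where the capitals read CACGC, the core GCGTG lies on the opposite strand, and CACGTG holds ACGTG on both strands.
Egln3, 229 bases before the start, chr12:54204089-54204113, minus strand: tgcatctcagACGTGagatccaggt
Egln1, 126 bases before the start, chr8:124949366-124949390, minus strand: ccggcccgccGCGTGcgcgcggccc
Egln1, 68 bases before the start, chr8:124949308-124949332, minus strand: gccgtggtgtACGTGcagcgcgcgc
Egln2, 48 bases before the start, chr7:27166836-27166860, minus strand: cctcctgtcaACGTGcggttcgcgc
Hif1a, 135 bases before the start, chr12:73907722-73907747, plus strand: cacagacaagCACGTGagcggggcag
Hif1a, 70 bases before the start, chr12:73907787-73907811, plus strand: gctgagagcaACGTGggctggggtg
Adm, 90 bases before the start, chr7:110627557-110627581, plus strand: tagaagcaagCACGCtggagaggga
Adm, 54 bases before the start, chr7:110627593-110627617, plus strand: caaatctgacCACGCccaccgtccg
The palindrome CACGTG of Hif1a was present in 6.02% of all windows. Both stretches of Hif1a and the second of Egln1 overlap the gene itself in the GENCODE M21 annotation, which starts these genes further upstream than the RefSeq starts used here.

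The values are FPKM, a measure of fragments corrected for gene length and library size, so levels of different genes can be ordered. Between 14691076 and 16047003 reads were counted on genes per library. Groups were compared with limma on log2(FPKM + 0.1) over 18035 genes, and a gene was called when its adjusted p was under 0.05 and its log2 fold change beyond 0.75 in either direction. Mc4r itself had 2 reads in WT replicate 3 and 0 in the other 5 libraries, under the floor of 3 reads, so the genotype could not be checked from it. Mitochondrially encoded transcripts took 59.3%, 57.4% and 47.1% of the summed FPKM in WT replicates 1, 2 and 3 and 43.6%, 46.6% and 43.0% in the Mc4r KO libraries. WT replicate 3 stood apart from the other WT libraries. Its summed FPKM of 6 atrial markers was 825, against 29.2 and 100 in the other WT libraries and 6.6 to 140 in the Mc4r KO libraries, so results are also given without it. Across genes it correlated with Mc4r KO replicates 1, 2 and 3 at Pearson r = 0.962, 0.951 and 0.952. With WT replicates 1 and 2 it correlated at 0.946 and 0.952. Fits without it thus leave out the WT library most like the Mc4r KO libraries by this measure. Cardiomyocyte markers were abundant in all libraries (summed FPKM from 14678 to 19621), and skeletal muscle markers were nearly absent (1.04 to 2.29).

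Within the hearts, Egln1 and Epas1 were the most abundant transcripts of the 10. In the WT mice Egln1 stood at 126 ± 8.81 and Epas1 at 83.0 ± 6.25 (SD, n = 3), at percentiles 98.6 and 97.8 of all tested genes by their mean over the libraries. Egln3 (16), Hif1an (14.5), Egln2 (14.2) and Hif1a (12.5) followed, and the library ranges of neighbours in this order overlapped. Arnt (5.93) came next, then Adm (4.75) and Vhl (4.30), whose ranges overlapped, and Hif3a (0.340) was lowest. In the Mc4r KO mice the order began the same way, but the neighbours Egln3 (48.5), Egln2 (22.8), Hif1an (14.7) and Hif1a (8.30) were each separate from the next in all libraries. Only the ranges of Adm (3.46) and Vhl (3.46) overlapped there. These are levels in whole tissue, where fewer cells of a type and less RNA per cell cannot be told apart.

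**Figure D1:**
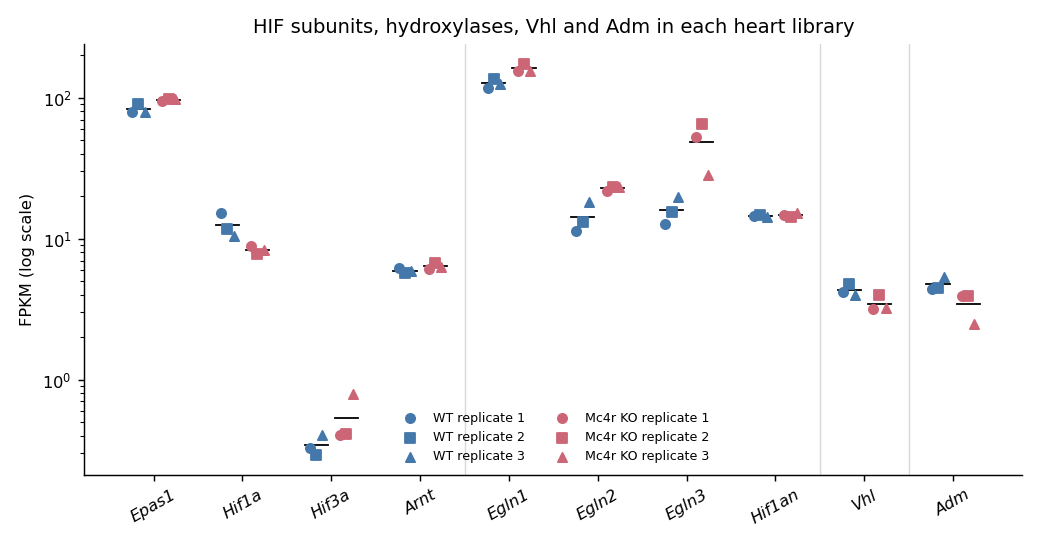
FPKM of each of the 10 genes (log axis) in the 3 WT and 3 Mc4r KO libraries, 1 point per library, with a bar at each group mean. Egln1 and Epas1 lie above all other genes, Hif3a lies below 1, and the groups are apart most widely in Egln3.

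Among the alpha subunits, Epas1 (HIF-2alpha, ENSMUSG00000024140; chromosome 17, 86753907 to 86833410, GRCm38) is known for its high level in endothelium. Its FPKM was 79.7, 90.2 and 79.0 in WT replicates 1 to 3 and 95.6, 97.7 and 97.4 in Mc4r KO replicates 1 to 3. The Mc4r KO libraries were close together and all lay above the WT libraries, by 0.23 on the log2 scale (standard error 0.08, 95% interval 0.03 to 0.42, adjusted p = 0.194, limma). The difference was near 0 on other scales. It was 0.02 after quantile normalization, and 0.03 when libraries were scaled outside the mitochondrial chromosome, where the median of all tested genes was -0.19. Removal of the trend in GC content gave 0.13.

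Hif1a (HIF-1alpha, ENSMUSG00000021109; chromosome 12, 73901375 to 73947530) is the alpha subunit linked most closely to glycolytic genes. Its FPKM was 15.3, 11.7 and 10.5 in the WT hearts and 8.85, 7.80 and 8.25 in the Mc4r KO hearts. Every WT library lay above every Mc4r KO library, and the WT values were in the order of their mitochondrial shares, highest in replicate 1 and lowest in replicate 3. Its log2 fold change of -0.57 carried an interval away from 0 (standard error 0.15, 95% interval -0.92 to -0.22, adjusted p = 0.107, limma), and the sign was negative in all 20 alternatives, from -0.76 to -0.27. The adjusted p was 0.0428 in limma voom and 0.0458 in limma without WT replicate 3, within a range of 0.0428 to 0.684, and no alternative gave a call. The value nearest to 0, -0.27 (adjusted p = 0.684, limma), came with the mitochondrial share as a covariate. The estimate was -0.38 with the trend in GC content removed. Of the exonic bases of Hif1a, 5.60% lie under a gene on the opposite strand (Gm15283) and 2.51% under one on the same strand (Gm49321), and the use of strand in the counting is not given in the sources used here.

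Hif3a (HIF-3alpha, ENSMUSG00000004328; chromosome 7, 17031507 to 17062427), some forms of which oppose the other alpha subunits, was close to the lower end of detection. Its reads numbered 31, 28 and 46 in the WT hearts and 42, 42 and 85 in the Mc4r KO hearts, with FPKM of 0.328, 0.291 and 0.403 against 0.403, 0.412 and 0.790. WT replicate 3 and Mc4r KO replicate 1 were equal to the printed digits, and Mc4r KO replicate 3 stood above all others. For Hif3a the log2 difference was 0.48 (standard error 0.31, adjusted p = 0.415, limma), which was 0.21 without Mc4r KO replicate 3.

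Arnt (HIF-1beta, ENSMUSG00000015522; chromosome 3, 95434388 to 95497240), the common partner of the alpha subunits, differed little. Its FPKM was 6.22, 5.68 and 5.89 in the WT hearts and 6.08, 6.73 and 6.33 in the Mc4r KO hearts, and the groups overlapped. Limma gave Arnt a log2 fold change of 0.10 (standard error 0.09, 95% interval -0.11 to 0.32, adjusted p = 0.558, limma), and its sign turned to -0.09 with the scaling outside the mitochondrial chromosome.

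On the deposited FPKM scale the prolyl hydroxylases lay higher in the Mc4r KO hearts as a family. Their summed FPKM was 142, 164 and 164 in the WT hearts and 228, 263 and 207 in the Mc4r KO hearts, without overlap. This sum was not computed on other scales. Most of it was Egln1, whose log2 difference of 0.36 was 0.17 after quantile normalization. With libraries scaled outside the mitochondrial chromosome it was 0.16. Egln3 (PHD3, ENSMUSG00000035105; chromosome 12, 54178981 to 54203860), the family member best known for strong induction by hypoxia, had FPKM of 12.8, 15.5 and 19.8 in the WT hearts and 52.5, 64.8 and 28.2 in the Mc4r KO hearts. These values rest on 481, 591 and 896 reads against 2169, 2621 and 1205. Mc4r KO replicate 3 was the lowest of its group but still above WT replicate 3, the highest of the WT libraries. The difference amounted to 1.53 on the log2 scale (standard error 0.31, 95% interval 0.81 to 2.26, adjusted p = 0.0744, limma), a 2.89-fold difference. It stayed between 1.28 and 1.88 in 20 alternatives, the highest of them without Mc4r KO replicate 3. Egln3 was called in 3 of the 20, with limma voom on the recovered reads (adjusted p = 0.0142), with array weights and over protein-coding genes alone, and the adjusted p ranged from 0.0142 to 0.451.

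Egln2 (PHD1, ENSMUSG00000058709; chromosome 7, 27158658 to 27166802), a mainly nuclear family member, had FPKM of 11.3, 13.2 and 18.3 in the WT hearts and 21.8, 23.2 and 23.3 in the Mc4r KO hearts. The Mc4r KO libraries were close together, and WT replicate 3 lay between them and the other WT libraries. On the log2 scale the Mc4r KO level exceeded that of WT by 0.70 (standard error 0.17, 95% interval 0.30 to 1.10, adjusted p = 0.0992, limma). Without WT replicate 3 it was 0.90 and passed the threshold (adjusted p = 0.015, limma), and it was also called with array weights, within a range of 0.015 to 0.668 over 20 alternatives. With the mitochondrial share as a covariate it was 0.21 (adjusted p = 0.668, limma), and with the trend in GC content removed it was 0.40 (adjusted p = 0.101, limma).

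Egln1 (PHD2, ENSMUSG00000031987; chromosome 8, 124908587 to 124949324), regarded as the main oxygen sensor for HIF-1alpha, had FPKM of 118, 135 and 126 in the WT hearts and 154, 175 and 156 in the Mc4r KO hearts. All Mc4r KO libraries lay above all WT libraries, and limma estimated a log2 difference of 0.36 (standard error 0.10, 95% interval 0.13 to 0.58, adjusted p = 0.115, limma). It was 0.16 with the scaling outside the mitochondrial chromosome, 0.17 after quantile normalization and 0.18 with the trend in GC content removed.

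The makeup of the family also differed, as a description without a test. Egln3 supplied 9.04%, 9.43% and 12.1% of the summed FPKM of the prolyl hydroxylases in the WT hearts and 23.0%, 24.6% and 13.6% in the Mc4r KO hearts. The share of Egln1 was 83.0%, 82.5% and 76.8% against 67.4%, 66.6% and 75.2%, and that of Egln2 overlapped (9.05% ± 1.83 against 9.87% ± 1.22, SD, n = 3). WT replicate 3 and Mc4r KO replicate 3 were thus close to each other in the shares of Egln1 and Egln3, although they did not overlap. Among the alpha subunits, Hif1a supplied 16.1%, 11.5% and 11.7% in the WT hearts and 8.44%, 7.36% and 7.75% in the Mc4r KO hearts, and Epas1 supplied nearly all the rest. The sum of the alpha subunits was 95.8 ± 6.15 in the WT mice and 106 ± 0.838 in the Mc4r KO mice (SD, n = 3). On the deposited FPKM scale the lower share of Hif1a was thus not a lower sum. The sum was not computed after quantile normalization or scaling outside the mitochondrial chromosome, where the difference of its main part, Epas1, was near 0. Shares within a library do not change when all its values are multiplied by 1 factor, but they can change under quantile normalization or removal of the GC trend.

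**Figure D2:**
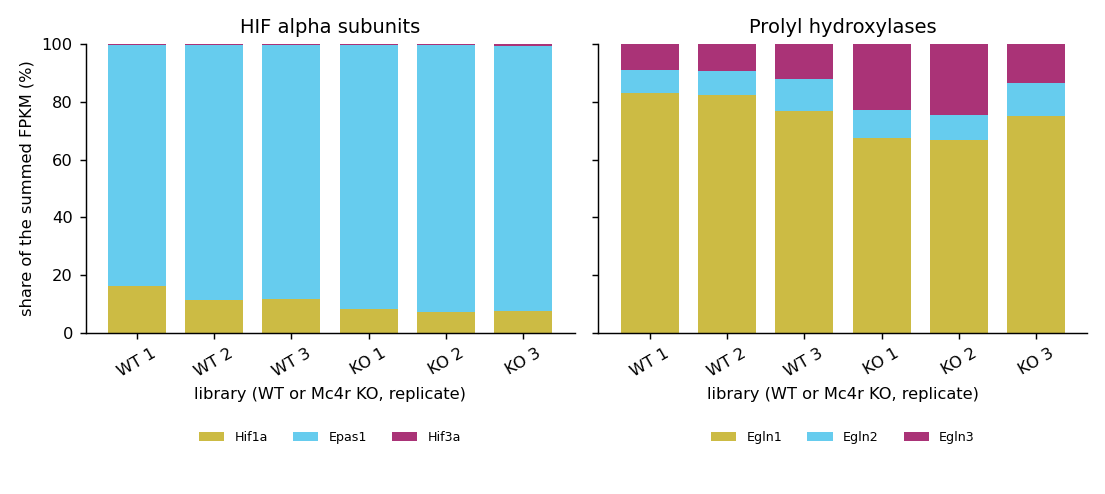
Percent of the summed FPKM of the alpha subunits and of the prolyl hydroxylases supplied by each gene, as stacked bars with 1 bar per library. Hif1a is a smaller slice in the Mc4r KO libraries, and Egln3 is a larger one, from 9.04% to 12.1% in WT and from 13.6% to 24.6% in Mc4r KO.

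The asparaginyl hydroxylase Hif1an (FIH, ENSMUSG00000036450; chromosome 19, 44562850 to 44576274) differed least of the 4 hydroxylases. Its FPKM was 14.5, 14.8 and 14.3 in the WT hearts and 14.8, 14.2 and 15.1 in the Mc4r KO hearts. The groups overlapped fully, with a log2 fold change of 0.02 and a 95% interval from -0.16 to 0.19 (standard error 0.08, adjusted p = 0.925, limma). Its sign turned under quantile normalization, the scaling outside the mitochondrial chromosome, the removal of the GC trend and without Mc4r KO replicate 3, with values from -0.18 to -0.0032.

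Vhl (ENSMUSG00000033933; chromosome 6, 113623959 to 113631633), the substrate receptor of the ligase that removes hydroxylated alpha subunits, had FPKM of 4.16, 4.74 and 4 in the WT hearts and 3.16, 4 and 3.22 in the Mc4r KO hearts. Mc4r KO replicate 2 reached the level of WT replicate 3, so the groups overlapped. Limma put the log2 difference at -0.31 (standard error 0.13, 95% interval -0.62 to 0.00, adjusted p = 0.24, limma).

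Adm (ENSMUSG00000030790; chromosome 7, 110627661 to 110629820) encodes adrenomedullin, a peptide that widens vessels. Its FPKM was 4.42, 4.47 and 5.37 in the WT hearts and 3.94, 3.94 and 2.50 in the Mc4r KO hearts, from 65 to 148 reads per library. The groups did not overlap, and Mc4r KO replicate 3 was the lowest. For Adm the log2 fold change came to -0.47 (standard error 0.19, 95% interval -0.93 to -0.02, adjusted p = 0.228, limma), and without Mc4r KO replicate 3 it was -0.26. Thus the HIF targets among the 10 genes lay on opposite sides, Egln1 and Egln3 above and Adm below the WT level.

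Adm acts through the receptor Calcrl together with the accessory proteins Ramp2 or Ramp3. In a list of 11 other genes of the adrenomedullin system, 9 were tested and 0 were called by limma (1 of the 9, Ramp1, by limma voom), and 2 had an unadjusted p under 0.05, a share near the 20.9% of all genes tested. The median log2 fold change was -0.11, and 8 of the 9 were negative. This median was not stable, at -0.31 without WT replicate 3, -0.23 without Mc4r KO replicate 3, -0.06 without Mc4r KO replicate 2 and 0.14 with the mitochondrial share as a covariate. It was -0.26 after quantile normalization and -0.29 with the scaling outside the mitochondrial chromosome. Ramp1, which turns the same receptor into one for calcitonin gene-related peptide, was at 3.43, 3.71 and 4.55 in the WT hearts and 1.85, 1.37 and 2.56 in the Mc4r KO hearts (log2 fold change -1.01, adjusted p = 0.0897, limma). Ramp3 was at 3.19, 3.18 and 1.87 against 6.77, 4.96 and 4.07 (0.92, adjusted p = 0.121, limma). The accessory proteins Ramp1 and Ramp3 therefore lay on opposite sides, each without overlap between the groups.

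Over the 10 genes, limma called 0, where 0.460% of all genes tested were called (83 genes, of which the Mc4r KO level was higher in 57 and lower in 26). With the scaling outside the mitochondrial chromosome, 16 genes were called higher and 25 lower. An unadjusted p under 0.05 was reached by 6 of the 10 genes and by 20.9% of all genes tested. Limma voom called 1 of the 10, Egln3, where 1.76% of all genes were called, and limma without WT replicate 3 called 1, Egln2, where 3.50% were. The groups did not overlap in 7 of the 10 genes, 5 with the Mc4r KO libraries above and 2 below, whereas 26.4% of all genes tested did not overlap. The 5 include Hif3a, whose nearest libraries were equal to the printed digits, and without it the groups did not overlap in 6 genes, 4 above and 2 below. Vhl, counted as overlapping, was likewise a near tie between WT replicate 3 and Mc4r KO replicate 2. The median log2 fold change of the 10 was 0.17, against -0.01 over all genes tested. The overlaps, the counts by unadjusted p and this median are given for the deposited FPKM scale only. After quantile normalization or scaling outside the mitochondrial chromosome, the differences of Epas1 and Egln1 were smaller. With 3 mice per group, the smallest p of an exact two-sided permutation test is 0.1, so no single gene could pass by that test.

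**Figure D3:**
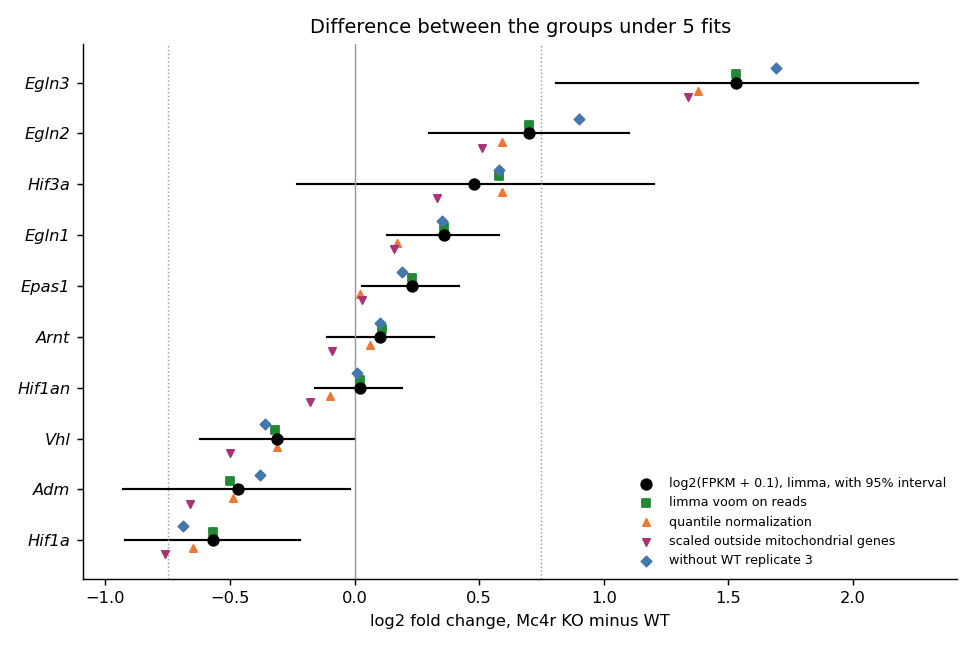
Log2 fold change of each gene (Mc4r KO minus WT, on log2(FPKM + 0.1)) with its 95% interval from limma, together with the values from alternative settings. The dotted lines mark the call threshold of 0.75 in either direction. Egln1, Egln2, Egln3 and Epas1 lie to the right of 0 and Hif1a and Adm to the left with intervals that leave out 0, while the intervals of Hif3a, Arnt, Hif1an and Vhl hold 0.

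Beyond the 10 genes, 59 textbook HIF target genes were listed by role, of which 56 were tested and 0 were called by limma. The log2 fold change was positive in 39 and negative in 17, with a median of 0.25. Over all 18035 genes tested it was positive in 8793. The Mc4r KO libraries lay above all WT libraries in 22 and below in 9, where the groups did not overlap in 26.4% of all genes tested. An unadjusted p under 0.05 was reached by 30 (20.9% of all genes). Limma voom called 5 (1.76% of all genes) and limma without WT replicate 3 called 6 (3.50% of all genes). The median was 0.06 with the scaling outside the mitochondrial chromosome, where that of all genes was -0.19, and 0.16 after quantile normalization.

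The glycolysis and glucose group had 17 of 20 tested genes on the positive side, with a median of 0.29. This median was 0.11 with the scaling outside the mitochondrial chromosome, where that of all genes was -0.19. After quantile normalization it was 0.20, where that of all genes was -0.01. Gys1, the glycogen synthase of muscle, was at 19.2, 18.7 and 20.8 in the WT hearts and 29.2, 34.3 and 33.2 in the Mc4r KO hearts. Its adjusted p was 0.0396 (limma), but the log2 fold change of 0.72 (standard error 0.09) was under the threshold of 0.75. Pgam1, a glycolytic mutase, was at 19.4, 19.4 and 19.7 against 33.2, 37.6 and 27.0 (0.73, adjusted p = 0.0579, limma). Neither gene overlapped between the groups.

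The groups for vessels and for mitochondria each held genes on both sides. For vessels and secreted factors, 6 of 9 were positive (median 0.28). That median was 0.08 with the scaling outside the mitochondrial chromosome and 0.10 after quantile normalization. Flt1, a receptor for vascular endothelial growth factor, had a log2 fold change of 0.48 (adjusted p = 0.102, limma), while Apln, which encodes the peptide apelin, had -1.06 (adjusted p = 0.141, limma). For mitochondria, mitophagy and pH, 5 of 7 were positive (median 0.30). On the same 2 scales the median was 0.11 and 0.08. Higd1a, a mitochondrial protein induced by hypoxia, had 0.75 (adjusted p = 0.131, limma) and passed the threshold without WT replicate 3, and the mitophagy receptor Bnip3l had -0.41 (adjusted p = 0.0843, limma).

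Genes for transcription, chromatin and mTOR were divided, 6 of 10 positive with a median of 0.14. It was -0.05 with the scaling outside the mitochondrial chromosome and 0.12 after quantile normalization. Ddit4, an inhibitor of mTOR, had a log2 fold change of 0.96 (adjusted p = 0.13, limma) and was called by limma voom, and the transcriptional repressor Bhlhe40 had -0.38 (adjusted p = 0.118, limma). In the group for iron, heme, redox and nitric oxide 1 of 4 was positive. Nos2, the inducible nitric oxide synthase, was at 5.34, 5.03 and 3.15 in the WT hearts and 2.23, 2.27 and 1.86 in the Mc4r KO hearts (-1.02, adjusted p = 0.0766, limma), and limma voom called it. Tfrc, the transferrin receptor, had 1.12 with overlap between the groups (adjusted p = 0.208, limma).

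Collagen modification and protein folding had 4 of 6 on the positive side (median 0.23). The median was 0.04 with the scaling outside the mitochondrial chromosome and 0.20 after quantile normalization. P4ha1 is a prolyl hydroxylase of collagen and depends on oxygen as the Egln enzymes do. It was at 8.91, 10.4 and 10.1 in the WT hearts and 15.3, 22.1 and 14.9 in the Mc4r KO hearts, without overlap (0.80, adjusted p = 0.075, limma), and limma voom called it. Plod1, a collagen lysyl hydroxylase, had 0.38 (adjusted p = 0.152, limma).

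Of 30 listed partners of HIF, 26 were tested, 15 positive and 11 negative, with a median of 0.07 that turned to -0.03 after quantile normalization and to -0.12 with the scaling outside the mitochondrial chromosome. Limma and limma voom both called 0 of them, and 5 had an unadjusted p under 0.05, a share near the 20.9% of all genes tested. The smallest p among stability factors belonged to Wdr83, a scaffold that binds Egln3 (log2 fold change 0.62, adjusted p = 0.0871, limma), and to Elob, a subunit of the Vhl ligase (0.45, adjusted p = 0.116, limma). Among dimer partners and coactivators it belonged to Ahr, which also pairs with Arnt (0.46, adjusted p = 0.179, limma), and to the coactivator Ncoa2 (-0.28, adjusted p = 0.193, limma).

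Other oxygen-dependent enzymes gave 6 positive and 6 negative genes of 12 tested, with a median of 0.06 (-0.13 with the scaling outside the mitochondrial chromosome) and 0 called by limma or limma voom. An unadjusted p under 0.05 was reached by 4, against 20.9% of all genes tested. P4htm, a prolyl hydroxylase of the endoplasmic reticulum that can act on HIF, was at 1.99, 2.45 and 2.46 in the WT hearts and 3.21, 3.13 and 3.24 in the Mc4r KO hearts (log2 fold change 0.46, adjusted p = 0.114, limma). Alkbh5, an RNA demethylase, had 0.21 (adjusted p = 0.196, limma).

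**Figure D4:**
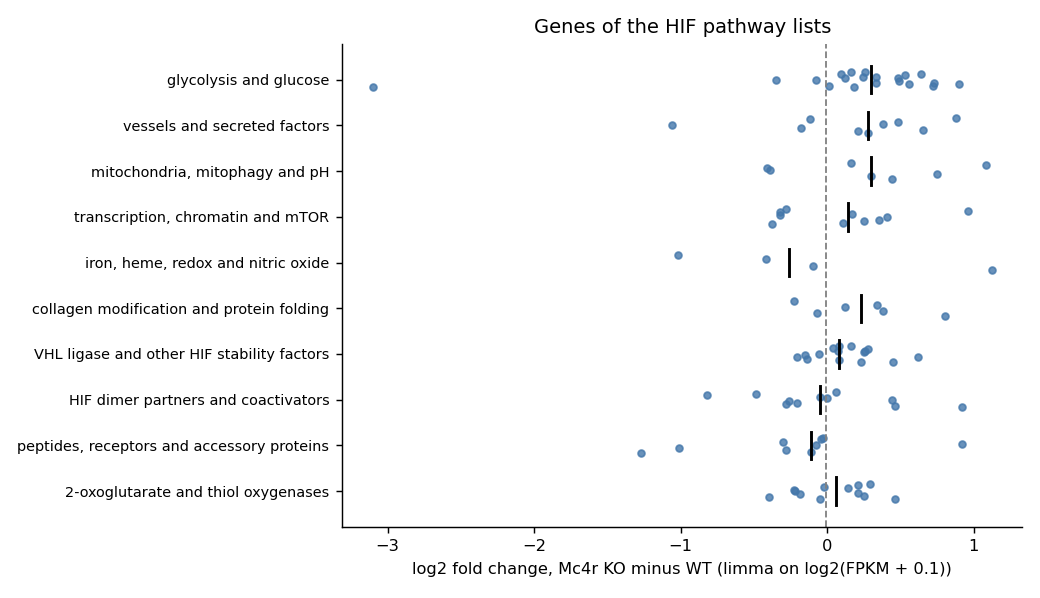
Log2 fold change (Mc4r KO minus WT) of every tested gene in the gene lists, 1 point per gene, with a bar at the median of each group and a dashed line at the median of all genes tested (-0.01). Of the 20 glycolysis points 17 lie to the right of 0, and the other groups have points on both sides.

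Cell type markers moved with the groups in part. The summed FPKM of 10 cardiomyocyte markers was 14678 to 15920 in the WT hearts and 17985 to 19621 in the Mc4r KO hearts, without overlap. Much of this difference came from Actc1, cardiac actin, with a mean FPKM of 5178 in WT and 7539 in Mc4r KO, and the Mc4r KO libraries lay above all WT libraries in 3 of the 10 markers. The median log2 fold change of the 10 was 0.19, but 0.05 after quantile normalization and 0.00 with the scaling outside the mitochondrial chromosome. The summed FPKM of 7 fibroblast markers was 205 to 218 against 152 to 177, likewise without overlap. Much of this difference came from Dcn, with a mean FPKM of 119 in WT and 82.4 in Mc4r KO. The log2 fold change was negative in 5 of the 7 and positive in 2, and 3 lay below all WT libraries. The summed FPKM of 10 endothelial markers, from the cells in which Epas1 is known to be high, overlapped (334 to 415 against 373 to 431). The sums of macrophages and of smooth muscle and pericytes overlapped too. Those of erythrocytes also overlapped but ranged widely, from 860 to 6344 in the WT hearts and from 620 to 1651 in the Mc4r KO hearts. The log2 fold change was negative in all 6 erythrocyte markers (median -1.62), and 0 were called by limma. Adipocyte markers were nearly absent (0.0283 to 1.02). The part of these cell types and of the mitochondrial share in the differences of the 10 genes was not tested.

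The genes most like Egln3 and Hif1a across the 6 libraries were sought among 11296 genes by the root mean square difference of their centred log2 values. The nearest to Egln3 were Gm3375 (0.284), Eln, which encodes elastin (0.302), and Slc25a29, a mitochondrial carrier (0.321). Eln was at 1.90, 2.78 and 4.95 in the WT hearts and 9.26, 8.76 and 6.25 in the Mc4r KO hearts, so that its group extremes, WT replicate 3 and Mc4r KO replicate 3, were those of Egln3. The nearest to Hif1a were Btg2 (0.0383), Cd2ap (0.0415) and 4430402I18Rik (0.0455). This measure grows with the size of a gene's own deviations, so its values for Egln3 and Hif1a cannot be compared. Btg2, an antiproliferative factor, was at 22.7, 17.1 and 15.7 in the WT hearts and 12.3, 11.7 and 12.1 in the Mc4r KO hearts, the same order of WT libraries as for Hif1a. Eln and Btg2 were picked for such likeness, so their shared patterns are no separate result.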

How the data were processed

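Polyadenylated RNA from the hearts of 3 WT and 3 Mc4r KO mice was sequenced. The authors aligned reads with HISAT2 (version 2.0.5, mm10, per the submitters' processing notes), counted them on genes with featureCounts and deposited FPKM for each gene and library with gene lengths and positions. The release of the annotation and the strand setting are not given in the sources used here. Multiplied by gene length, 100% of the FPKM values were whole reads of a fixed size in their library (tolerance 0.01 reads), so reads could be recovered. A floor of 3 reads covers counting error only.

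The main test was limma (version 3.58.1, R 4.3.3) on log2(FPKM + 0.1) with the empirical Bayes trend and no covariate, over the 18035 genes averaging 0.1 FPKM or more, two-sided with Benjamini-Hochberg adjustment over all of them. A fold change on this scale understates that of weakly expressed genes. P-values rest on the spread between these libraries. With 1 library per mouse, differences between mice, dissections and library preparations cannot be told apart in it. The 10 genes and all lists were chosen with earlier results of these data known. Named genes outside the 10 were the 2 with the smallest p in each list group (mean FPKM of at least 1) and the 3 most like Egln3 and Hif1a.

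Of the gene identifiers, 99.9% were in GENCODE M21 (GRCm38). Shared words of 50 bases and overlapping exons were searched there, and promoter windows came from RefSeq (GRCm38.p6). Scripts were tested on simulated data. Alternatives were other pseudocounts and filters, quantile normalization, scaling outside the mitochondrial chromosome, removal of the GC trend, no trend, robust fits, array weights, a replicate block, the mitochondrial share as a covariate, limma voom on recovered reads, protein-coding genes alone, a fold change of 1.5, and fits without each library in turn. Figures used Python 3.11.15 and matplotlib 3.10.9.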

Additional observations from a re-analysis of the deposited data

How the results depend on the processing

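The number of genes called, 83 by limma, was 44 with a pseudocount of 1, 22 without a filter on low values, 147 at a mean FPKM of at least 1, 49 after quantile normalization, 41 with the scaling outside the mitochondrial chromosome, 21 without the trend, 435 with array weights, 2 with the mitochondrial share as a covariate, 317 with limma voom and 204 over protein-coding genes alone. Without 1 library it ranged from 0 (without WT replicate 1, WT replicate 2 or Mc4r KO replicate 3) to 632 (without WT replicate 3). Of the 10 genes, 0 were called by limma, 2 with array weights (Egln2 and Egln3), 1 with limma voom and 1 over protein-coding genes alone (Egln3 in both), and 0 to 1 without 1 library (Egln2 without WT replicate 3). The other alternatives called 0. The replicate block gave 11 calls and 0 of the 10 genes. The labels do not say that replicate numbers mark litters, so the numbers were not taken as pairs. Deviations of same-numbered libraries from their group means correlated at -0.141, 0.007 and -0.082. With 3 libraries per group, these values cannot decide whether the mice were paired. The log2 fold change changed sign for Arnt (-0.09 with the scaling outside the mitochondrial chromosome) and for Hif1an (-0.10 after quantile normalization, -0.18 with that scaling, -0.05 with the GC trend removed, and from -0.0032 without Mc4r KO replicate 3 to 0.04 over the fits without 1 library). The other 8 genes kept their direction in all alternatives run. The cause of these shifts was not tested. With 3 mice per group, and 28 to 148 reads per library on Hif3a and Adm, the depth limits the size of difference that could be detected in these genes.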

Other observations

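Some genes were looked at after their values were seen. Within the glycolytic HIF targets, the lone gene far on the negative side was Gapdh, at an FPKM of 13.6, 5.49 and 49.2 in the WT hearts and 1.78, 1.26 and 2.26 in the Mc4r KO hearts. Its neighbours in the pathway lay the other way, Aldoa at 443, 501 and 545 against 711, 764 and 671, Ldha at 139, 131 and 168 against 210, 221 and 210, and Pfkl at 9.55, 12.3 and 15.7 against 23.0, 23.7 and 22.1. Gapdh had a log2 fold change of -3.10 (adjusted p = 0.0919, limma), with a WT SD of 23.3 around a mean of 22.8. It is known for many near-identical copies in the mouse genome, so its level from these counts is uncertain. The part of these copies in the difference was not tested. Gapdh was also far below Aldoa in every library. In the paper, RT-qPCR gave a far smaller decrease of Gapdh than RNA-seq did. Arntl, a clock factor related to Arnt, had 14, 43 and 29 reads in the WT hearts and 54, 60 and 75 in the Mc4r KO hearts, so that its groups did not overlap while those of Arnt did.

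Mc4r KO replicate 3 was the library in which Egln3 and Adm were lowest and Hif3a highest within the Mc4r KO group. In WT replicate 3, Egln2 and Egln3 were the highest and Hif1a the lowest of the WT group, and each of the 3 stood nearest to the Mc4r KO values in that library.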
